A study of Mus musculus with 8 samples.

Results

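The 39 genes described here are interferon-induced GTPases and other interferon response genes, together with their transcriptional regulators and both subunits of the interferon gamma receptor. They were picked by name from the 55114 genes counted in intestinal crypts of Mex3a KO and control mice, and each name was found once. The choice was made with earlier results of the KO against WT comparison in view, so it counts as selected on the fold changes and p-values of that comparison, which are given below as a description of these mice. By the interferon that mainly induces them, 18 members were grouped as gamma-type and 19 as type I or III, while Ifngr1 and Ifngr2 were left in neither group.

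Interferons are secreted alarm proteins. Type I interferons (alpha and beta) and type III interferons (lambda) act through separate receptors on the same transcription factor complex, which contains STAT2 and IRF9, binds the interferon-stimulated response element (ISRE) and turns on antiviral genes such as Isg15, Ifit1 and Oas1a. Interferon gamma, made mainly by T and NK cells, acts through Ifngr1 and Ifngr2 on the gamma-activated site (GAS) of its target genes and turns on Irf1 and the GTPase families that attack the vacuoles of intracellular microbes. In the intestine, lambda receptors sit mainly on the epithelium, and T cells lie between the epithelial cells.

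The crypts came from 4 KO mice (genotype Mex3a-/-, a constitutive deletion of exon 1 and part of exon 2 in all tissues) and 4 littermate controls (WT), all C57BL/6 and 8 weeks old. They were released with EDTA and passed through a strainer, without a cell sort. WT libraries held 20324184 to 24726221 counted reads and KO libraries 23489180 to 30654105. Mex3a stood at 11.0 to 16.0 CPM (counts scaled to a common library size, with TMM factors) in WT mice and at 0.260 to 1.09 in KO mice, so that all 8 labels held. The labels give no sex, but mice 1 and 2 of each genotype carried Y transcripts (Ddx3y, 1073 to 1655 reads) and mice 3 and 4 carried Xist (36964 to 50562 reads), with no mouse in between. This split coincides with the replicate numbers 1 and 2 against 3 and 4, so sex and anything else that those numbers mark cannot be told apart.

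Crypt epithelial markers were high in every mouse, with Epcam at 1555 to 1700.0 CPM. Defining markers of other cells were low but present: the 16 T and NK cell markers summed to 19.8 to 69.8 CPM in WT mice and 42.5 to 162 in KO mice, the 12 myeloid markers to 42.1 to 45.9 and 38.9 to 52.1, and the 6 B and plasma cell markers to 14.6 to 28.3 and 17.5 to 29.2. The 8 villus enterocyte markers summed to 956 to 2587 CPM in WT mice and 1587 to 6023 in KO mice, with the highest sums of both the T cell and the villus list in KO mice 3 and 4. None of the marker genes on these lists was at 0 in all mice. In such bulk samples, more cells of a type and more RNA per cell cannot be told apart.

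Per unit of length, Ifngr1, Irf1, Ifngr2 and Irf8 stood highest among the members, and Tgtp2, Cxcl9, Gbp6 and Rsad2 lowest. Ifngr1 led with 46.1 ± 5.43 FPKM (fragments scaled to gene length and library size) in WT and 52.2 ± 2.52 in KO mice (SD, n = 4 each), followed by Irf1 with 39.6 ± 6.69 and 41.2 ± 4.42 and Ifngr2 with 29.1 ± 1.27 and 30.8 ± 2.80. Irf8, a factor best known from myeloid cells and B cells, came next at 20.98 ± 4.86 FPKM in WT mice. Oas1a was the highest antiviral effector with 11.7 ± 4.93 FPKM in WT mice, Igtp the highest GTPase of the immunity-related (IRG) family with 10.5 ± 7.83, and Gbp7 and Gbp2 the highest guanylate-binding proteins (GBP) with 0.964 ± 0.490 and 0.800 ± 0.379. Among WT mice the ranges of Ifngr1 and Irf1, of Oas1a and Igtp and of Irf9 and Irf7 overlapped, whereas Ifngr2 lay below Irf1 and above Irf8 in every mouse. Tgtp2 stood last, with 0 to 4 reads per mouse, and was the only member that did not pass the filter on low counts, which left 38 members among 16109 genes tested.

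**Figure D1:**
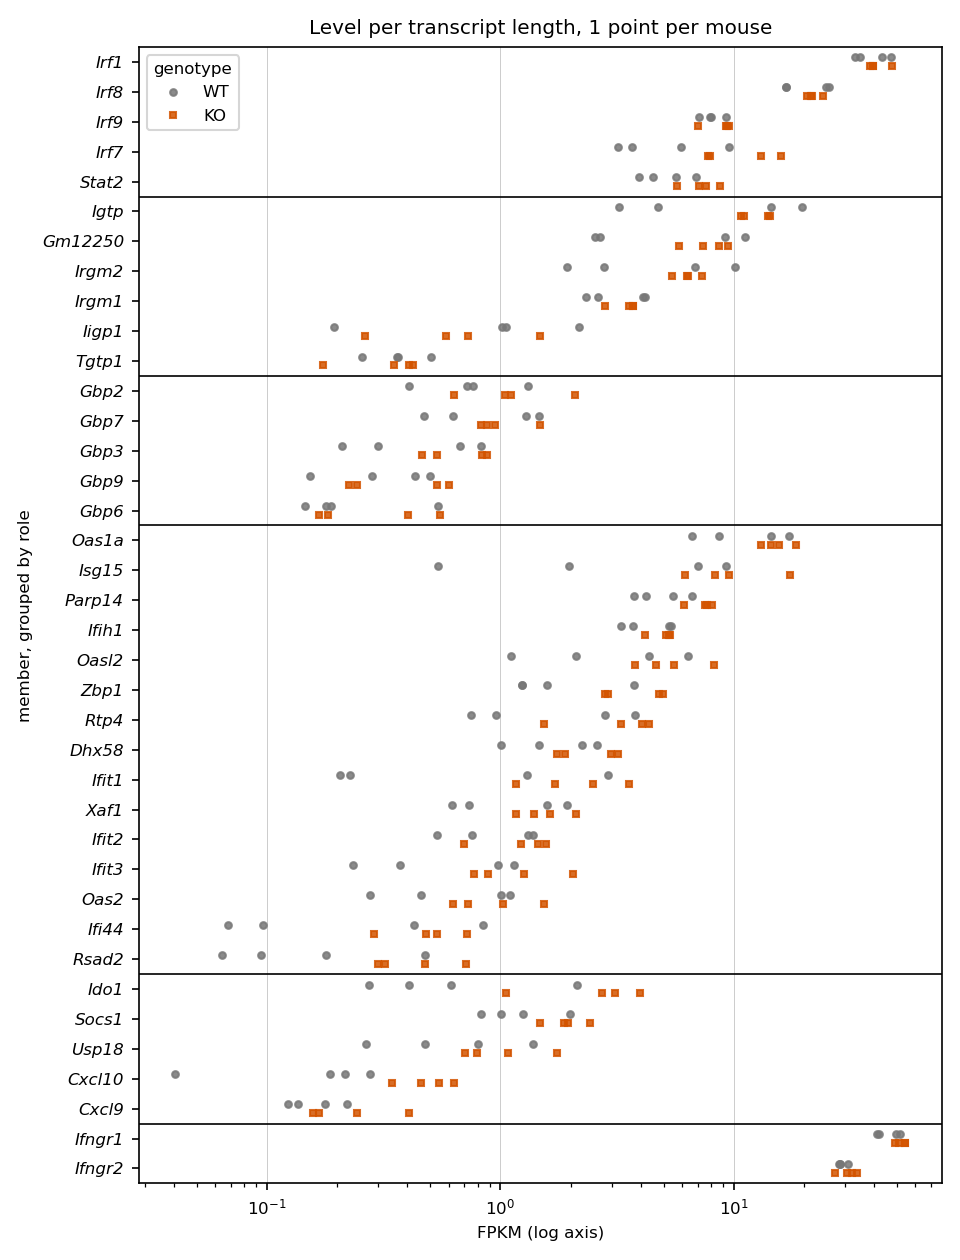
FPKM of 38 members in each of the 8 mice, on a log axis and grouped by role (grey circles, WT; orange squares, KO); Tgtp2 is left out because it is at 0 in 3 mice. Members span from below 0.1 FPKM (Cxcl10, Ifi44 and Rsad2 in WT mice) to 54.4 FPKM (Ifngr1 in KO mouse 1), and many WT rows fall into a low and a high pair of points.

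Most members shared a pattern within the WT mice: WT mice 1 and 2 had the lowest levels of most members, while WT mice 3 and 4 and all KO mice were higher. For 34 of 38 members, both WT mice with Y transcripts were below both WT mice with Xist, which was so for 17.4% of all genes tested. For 29 of 38 members, both WT mice with Y transcripts were below all other 6 mice, which was so for 5.26% of all genes tested. This second count also uses the KO mice, so it draws in part on the comparison that chose the members. The lowest of the 8 mice was WT mouse 1 for 21 members and WT mouse 2 for 13, and the highest was KO mouse 4 for 23. The deviation of the median member from the WT mean was -0.61 and -0.45 log2 units in WT mice 1 and 2, 0.37 and 0.78 in WT mice 3 and 4, and 0.51, 0.39, 0.29 and 0.92 in KO mice 1 to 4. Over all genes tested this median lay between -0.0098 and 0.0045 in every mouse.

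**Figure D2:**
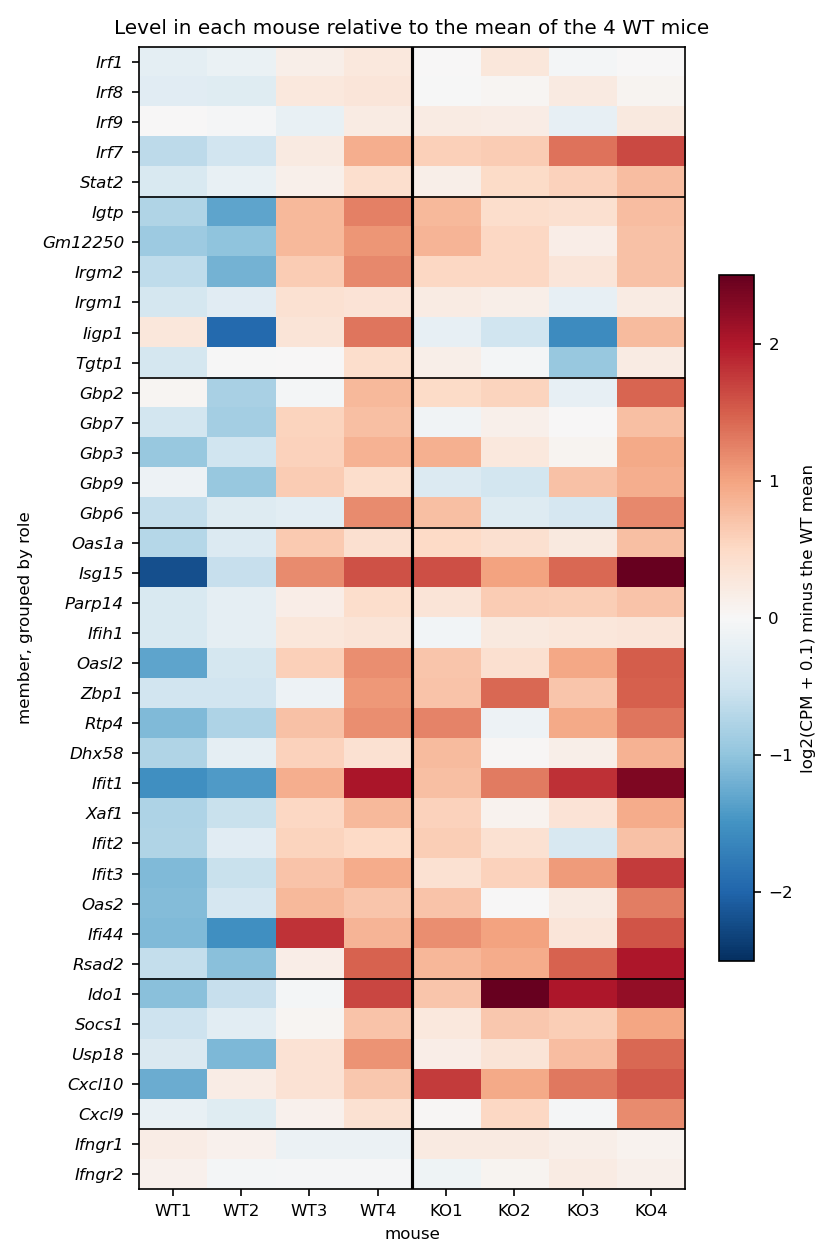
Level of the 38 tested members in each mouse as log2(CPM + 0.1) minus the mean of the 4 WT mice, grouped by role, with red above and blue below that mean and 1 value beyond the colour limit of 2.5. WT mice 1 and 2 are both blue in most rows, at least 1 of them lies above the WT mean for Irf9, Iigp1, Gbp2, Cxcl10, Ifngr1 and Ifngr2, and KO mouse 4 has the highest value in 23 rows.

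The IRG GTPases, which load onto the vacuoles of parasites and bacteria, differed in whether they followed this pattern: both WT mice with Y transcripts were below the other 6 mice for 4 of 6 tested genes (Igtp, Irgm2, Gm12250 and Irgm1), but not for Iigp1 and Tgtp1. Igtp, a regulatory member of the family, stood at 9.70, 6.54, 29.2 and 39.9 CPM in WT mice 1 to 4 and at 28.9, 22.4, 21.9 and 28.4 CPM in KO mice 1 to 4. The KO values thus lay between the low and the high pair of WT mice, and the genotypes overlapped fully. The fitted KO over WT change of Igtp was 0.25 ± 0.49 on the log2 scale (SE; edgeR quasi-likelihood test, adjusted p = 0.934). Irgm2 overlaps Igtp on the same strand in the files' coordinates (Igtp at chr11:58199556-58207591 and Irgm2 at chr11:58199618-58222782) and shares 2.48% of its 100-base stretches with it, so the counts of both are uncertain and are not separate observations. It stood at 10.4, 7.15, 25.3 and 37.7 CPM in WT mice and 23.3, 23.4, 20.2 and 27.2 CPM in KO mice. Gm12250, a further IRG gene next to both, followed the same course with 3.47, 3.27, 11.7 and 14.4 CPM in WT mice and 12.0, 9.47, 7.44 and 11.0 CPM in KO mice. The effector Iigp1 had the largest KO over WT difference of the family at -0.54 ± 0.66 (SE, adjusted p = 0.868), with 3.23, 0.607, 3.32 and 6.81 CPM in WT mice and 2.27, 1.82, 0.822 and 4.62 CPM in KO mice, which overlap. Irgm1, a regulator of the family, ranged from 13.8 to 24.3 CPM and Tgtp1 from 0.563 to 1.63 over all 8 mice.

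Promoter stretches of 5 of these GTPases are shown because they hold both interferon elements within 30 bases. The promoter of Irgm1 held 2 ISRE cores and no GAS core, and Iigp1 was not in the promoter table. In RefSeq promoters of GRCm38.p6 (250 bases before to 50 bases after the annotated start), which were found for 29 of the 39 members, the ISRE core GAAANNGAAA was searched on both strands and the GAS core TTCNNNGAA, which reads the same on both. RefSeq starts can differ from those of the counted genes, as for Irgm2 and Gm12250, which are counted from chr11:58199618 and chr11:58187739. Of 34 member promoters, 28 had their bases from the start on in a transcript of the gene. Each run below is 30 bases, 5′ to 3′ on the strand of the gene, with the matching letters in capitals. Igtp (chr11:58199507-58199536, + strand) and Irgm2 (chr11:58214898-58214927, + strand) both hold a GAS core, which begins 45 and 75 bases before the start, followed by an ISRE core that begins at 34 and 64 bases. Tgtp1 (chr11:48992309-48992338, - strand) and Tgtp2 (chr11:49064268-49064297, - strand) hold the same order, with the GAS core at 88 and 81 bases and the ISRE core at 77 and 70, and Gm12250 (chr11:58183780-58183809, + strand) holds the cores at 61 and 46 bases, with the ISRE core on the other strand.
Igtp: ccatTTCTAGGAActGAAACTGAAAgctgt
Irgm2: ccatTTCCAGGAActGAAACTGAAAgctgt
Tgtp1: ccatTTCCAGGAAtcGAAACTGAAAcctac
Tgtp2: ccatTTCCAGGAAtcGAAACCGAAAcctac
Gm12250: tgTTCTCAGAAatctgcTTTCAGTTTCatg

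Over the 29 members, 18 promoters (62.1%) held the ISRE core, against 3.99% of all 27025 genes with a promoter, and 10 (34.5%) held the GAS core, against 9.55%. Both cores were found in 7 members (24.1%) and in 0.614% of all genes, and in no member did a match of one core overlap a match of the other. Of the gamma-type members, 11 of 14 held the ISRE core and 8 of 14 the GAS core, while of the type I or III members 7 of 13 held the ISRE core and 2 of 13 the GAS core. Neither receptor subunit held a match in this window. A match is a run of letters and not a measured binding site, and members of a family that arose by duplication share sequence, so these shares are not independent observations.

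The GBP family, large GTPases that bind to pathogen vacuoles and bacterial surfaces, was low in these crypts. Gbp2 stood at 1.94, 1.03, 1.81 and 3.34 CPM in WT mice and 2.64, 2.79, 1.60 and 5.29 CPM in KO mice, with a KO over WT change of 0.60 ± 0.43 (SE, adjusted p = 0.740). Its highest value was that of KO mouse 4 and its lowest that of WT mouse 2, with overlapping genotypes. The other 4 tested GBP members, Gbp3, Gbp6, Gbp7 and Gbp9, ranged from 0.693 to 8.31 CPM, and their KO over WT changes from 0.09 to 0.42. Several of these counts are uncertain: 82.9% of the 100-base stretches of Gbp6 also occur in other genes (chiefly Gm43302), and Gbp9 overlaps Gbp8 and Gbp4. Among the IRG genes, 83.3% of the stretches of Tgtp1 are shared, mainly with Tgtp2.

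Among the regulators, Irf7 and Stat2 were higher in KO mice while Irf1, Irf8 and Irf9 differed little. Irf7, the factor that amplifies type I interferon responses, stood at 12.2, 13.9, 22.6 and 36.2 CPM in WT mice and at 29.3, 29.9, 49.7 and 60.6 CPM in KO mice. Within each number the KO mouse exceeded the WT mouse, and only WT mouse 4 reached the KO range. The change was 0.996 ± 0.367 on the log2 scale (SE; edgeR, unadjusted p = 0.0232, adjusted p = 0.545), and 1.06 in the fit blocked by replicate number (adjusted p = 0.126). Stat2, a subunit of the type I and III complex, stood at 23.5, 26.9, 33.5 and 41.0 CPM in WT mice and at 33.9, 42.3, 45.4 and 52.0 CPM in KO mice, a change of 0.47 ± 0.19 (SE, unadjusted p = 0.0297 and adjusted p = 0.557 by edgeR). In both genotypes, the mice with Xist had more Stat2 and more Irf7 than the mice with Y transcripts.

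Irf1, the first factor induced by interferon gamma, stood at 133, 139.5, 173 and 188 CPM in WT mice and 157, 190.4, 153 and 157 CPM in KO mice, which overlap, and its KO over WT change was 0.05 ± 0.13 (SE, adjusted p = 0.951). Its promoter holds a single GAS core 90 bases before the start, shown here because Irf1 is the classic target of this element (chr11:53769914-53769943, + strand, the core in capitals).
Irf1: acagcctgatTTCCCCGAAatgatgaggcc

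Irf8 stood at 120.0, 119, 176 and 181 CPM in WT mice and at 145, 151, 170.3 and 153 CPM in KO mice, a change of 0.05 ± 0.15 (SE, adjusted p = 0.957), and Irf9, the DNA-binding subunit of the type I and III complex, ranged from 38.0 to 51.8 CPM with a change of 0.11 ± 0.12.

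Both receptor subunits were among the steadiest members. Ifngr1, the ligand-binding chain, stood at 149.5, 143, 119 and 118 CPM in WT mice and 155, 154, 146 and 140.4 CPM in KO mice, with a KO over WT change of 0.17 ± 0.09 (SE, adjusted p = 0.656). Ifngr2, the signalling chain, stood at 118, 107, 108 and 109 CPM in WT mice and 102, 115, 127 and 121 CPM in KO mice, a change of 0.08 ± 0.08 (SE, adjusted p = 0.842). Ifngr1 ran against the other members within the WT mice, with its higher values in mice 1 and 2. Their SD of log2 CPM among WT mice had a median of 0.12, below that of 74.6% of all genes tested.

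The antiviral effectors and sensors had a median change of 0.55 over 15 members and a range from 0.17 to 1.13. At an unadjusted p under 0.05 (edgeR), 2 of 15 were higher, beside 5.33% of all genes tested. The median was 1.37 within mice with Y transcripts and 0.20 within mice with Xist, where 5 of 15 had a negative change. Oas1a, which makes the second messenger of RNase L, stood at 12.7, 16.4, 32.6 and 27.4 CPM in WT mice and 29.5, 27.4, 24.7 and 34.9 CPM in KO mice, a change of 0.39 ± 0.27 (SE, adjusted p = 0.738). Isg15, a ubiquitin-like protein that is joined to other proteins, had the largest change of these 15 genes, 1.13 ± 0.68 (SE, adjusted p = 0.682), from 0.416, 1.495, 5.32 and 7.06 CPM in WT mice and 7.18, 4.69, 6.32 and 13.2 CPM in KO mice. For both genes WT mice 1 and 2 were the lowest of all, and WT mice 3 and 4 lay in the KO range. Of the Oas1a stretches 40.9% are shared with Oas1g, and of the Ifit3 stretches 31.6% with Ifit3b.

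Parp14 and Zbp1 were the members of this group with an unadjusted p under 0.05. Parp14, a mono-ADP-ribosyltransferase, stood at 35.3, 39.3, 51.3 and 61.9 CPM in WT mice and at 57.1, 71.6, 70.4 and 75.1 CPM in KO mice, a change of 0.55 ± 0.17 (SE; edgeR, unadjusted p = 0.0104, adjusted p = 0.518). Zbp1, a sensor of Z-form nucleic acids that can start necroptosis, stood at 4.44, 4.39, 5.62 and 13.2 CPM in WT mice and 10.2, 17.0, 10.0 and 17.6 CPM in KO mice, a change of 0.98 ± 0.38 (SE; edgeR, unadjusted p = 0.0292, adjusted p = 0.557). Only WT mouse 4 overlapped the KO mice for either gene. The remaining effectors and sensors (Ifit1, Ifit2, Ifit3, Ifi44, Oas2, Oasl2, Rsad2, Xaf1, Rtp4, Dhx58 and Ifih1) ranged from 0.280 CPM (Rsad2 in WT mouse 2) to 52.4 CPM (Oasl2 in KO mouse 4).

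Promoter stretches of Isg15 and Ifit1 are shown for contrast with the GTPases, since they hold repeats of the ISRE core and no GAS core. The run of Isg15 (chr4:156200871-156200900, - strand, first match 78 bases before the start) holds 3 overlapping copies, and that of Ifit1 (chr19:34640785-34640814, + strand, first match 104 bases before the start) holds 2 copies on the other strand, with matching letters in capitals.
Isg15: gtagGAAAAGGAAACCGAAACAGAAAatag
Ifit1: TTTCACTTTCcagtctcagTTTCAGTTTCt

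The chemokines, Ido1 and the feedback inhibitors had a median change of 0.59 over 5 members. Ido1, which breaks down tryptophan, stood at 0.508, 0.748, 1.12 and 3.93 CPM in WT mice and at 1.93, 7.22, 5.02 and 5.69 CPM in KO mice, a change of 1.64 ± 0.63 (SE; edgeR, unadjusted p = 0.0274, adjusted p = 0.550). WT mouse 4 was above KO mouse 1, so the genotypes overlapped. Cxcl10, a chemokine that draws T cells through CXCR3, stood at 0.0924, 0.420, 0.488 and 0.627 CPM in WT mice and at 1.43, 0.776, 1.04 and 1.23 CPM in KO mice. It was the only 1 of 38 members for which all KO mice were above all WT mice, which was so for 2.17% of all genes tested. Its change was 1.44 ± 0.45 (SE; edgeR, unadjusted p = 0.00987, adjusted p = 0.518), but it rests on 2 to 15 reads per WT mouse and 20 to 37 reads per KO mouse. Cxcl9, Socs1, which blocks JAK kinases, and Usp18, which removes Isg15 and damps the type I receptor, changed by 0.57, 0.59 and 0.56, with adjusted p-values from 0.617 to 0.795.

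In all, 6 of 38 members were higher in KO mice at an unadjusted p under 0.05 (Stat2, Irf7, Parp14, Zbp1, Cxcl10 and Ido1) and 0 were lower, beside 5.33% of all genes tested that were higher and 3.05% that were lower. At an adjusted p under 0.05, 0 members passed, with 0.518 as the lowest value, and of all genes only Mex3a did (0.00621%). DESeq2 called 7 members higher at an unadjusted p under 0.05, beside 6.10% of all genes, and 0 at an adjusted p under 0.05. Since the members were chosen with this comparison known, the count is set beside the background as a description only. The 6 genes belong to both interferon types: Cxcl10 and Ido1 were grouped as gamma-type, and Stat2, Irf7, Parp14 and Zbp1 as type I or III.

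The median change was 0.55 over 19 type I or III members, all with a positive change, against 0.25 over 17 gamma-type members, of which 15 had a positive change, and -0.02 over all genes tested. The ranges overlapped widely, from 0.11 to 1.13 for type I or III and from -0.54 to 1.64 for gamma-type. In separate fits for each kind of mouse, the medians within mice with Y transcripts were 1.16 for type I or III and 0.84 for gamma-type. Within mice with Xist they were 0.35 and -0.17, so the gamma-type median changed sign. With the replicate block they were 0.67 and 0.49. The gamma-type median moved between -0.01 and 0.72 when single mice were left out, falling to -0.01 without WT mouse 2 and 0.03 without WT mouse 1, falling to 0.15 without KO mouse 4, and rising to 0.44 without WT mouse 3 and 0.72 without WT mouse 4. The type I or III median stayed between 0.37 and 0.75 in these fits. The order of the medians turned without WT mouse 4 (0.72 for gamma-type against 0.71 for type I or III) and with limma on log2(FPKM + 0.1) (0.52 against 0.50), so neither type is ranked above the other here.

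**Figure D3:**
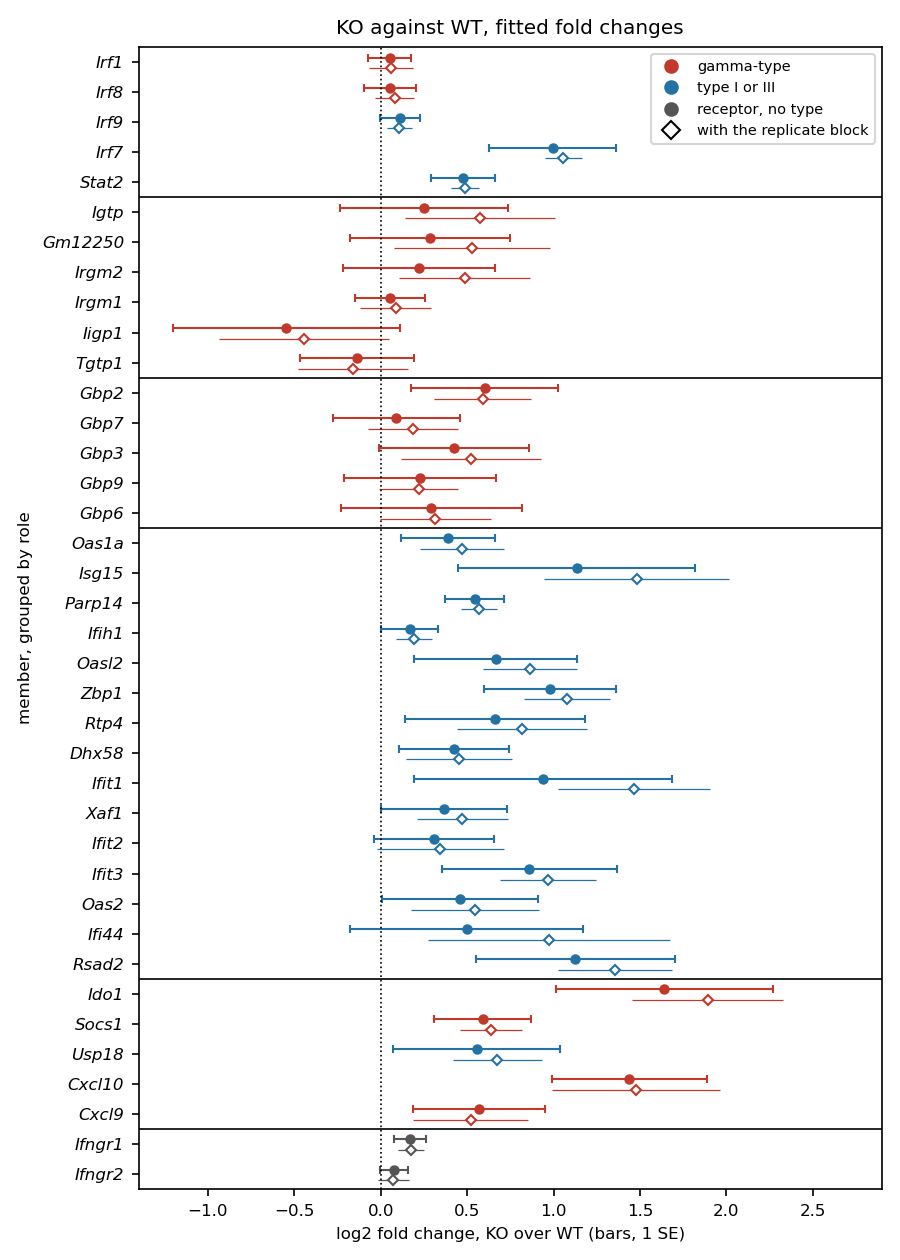
Fitted log2 fold change of KO over WT with 1 SE for each tested member, grouped by role (filled circles, genotype only; open diamonds, with the replicate number as a block; red, gamma-type; blue, type I or III; grey, receptor). Type I or III members lie to the right of 0 without exception, and the bars of all 6 IRG GTPases span 0 in the fit with genotype only.

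The count depended on how the shared numbering of the mice was treated. With the replicate number as a block, 14 of 38 members were higher at an unadjusted p under 0.05 and 0 lower, beside 7.14% and 4.13% of all genes, and 0 members had an adjusted p under 0.05 (lowest 0.126, Irf7). Of these 14, 10 were type I or III, 3 gamma-type and 1 a receptor subunit (Ifngr1). Besides the 6 genes above they were Isg15, Ifit1, Ifit3, Oasl2, Rsad2, Usp18, Socs1 and Ifngr1, and none was an IRG or GBP gene. Same-numbered mice deviated together with r above 0.1 for all 4 numbers over all genes, but only for 2 of 4 over autosomal genes, so the pairing behind this count is uncertain. With single mice left out of the fit with genotype only, the count was 13 without WT mouse 4, beside 6.41% of all genes, 2 without WT mouse 2, beside 4.38%, 3 without WT mouse 1, beside 4.06%, and 2 without KO mouse 4, beside 3.69%. The counts of 2 and 3 of 38 are near these backgrounds.

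The split of the mice by Xist and Y transcripts was then used to describe the pattern within genotypes, a comparison added after the values had been seen. It does not use the KO against WT contrast. Between the WT mice with Xist and those with Y transcripts, 29 of 38 members were higher in the mice with Xist and 1 (Ifngr1) was lower at an unadjusted p under 0.05, beside 4.24% and 3.58% of all genes tested (edgeR, 4 groups of 2 mice). None of the 38 passed at an adjusted p under 0.05 (lowest 0.105). The median member was 1.14 log2 units higher, against -0.01 over all genes tested. All 15 effectors and sensors were among the 29, with Ifit1 at 3.26 ± 0.48 (SE), Ifi44 at 2.92 ± 0.57 and Isg15 at 2.69 ± 0.60, named after their values were seen.

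The same GTPases whose promoters are printed above spanned a wide range in this comparison. Igtp was 2.09 ± 0.26 (SE) higher in WT mice with Xist, Gm12250 1.95 ± 0.26 and Irgm2 1.84 ± 0.27, while Tgtp1, with the same pair of elements, was at 0.49 ± 0.48 and Tgtp2 had too few reads to be tested. The count of 29 was 20 to 29 when each mouse was left out in turn, with the lowest count without WT mouse 4, beside 2.12% (without WT mouse 4) to 6.05% (without WT mouse 1) of all genes, and 18 of the 27 members tested with limma on log2(FPKM + 1), beside 4.31% of all genes. In these fits a lone mouse is assumed to vary like the other groups.

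Among the KO mice the split was weaker. There, 4 of 38 members were higher in the mice with Xist at an unadjusted p under 0.05 and 0 lower, beside 8.96% of all genes tested that were higher, and the median member differed by 0.21. The spread shows the same contrast: the median SD of log2 CPM over members was 0.76 among WT mice and 0.44 among KO mice, against 0.20 and 0.21 over all genes tested, and 33 of 38 members (86.8%) were more variable among WT than among KO mice, against 49.9% of all genes. For the IRG genes the medians were 1.11 and 0.26.

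Within the mice with Y transcripts, 27 of 38 members were higher in KO than in WT at an unadjusted p under 0.05, beside 3.6% of all genes, with a median change of 0.98. Within the mice with Xist, 4 were higher, beside 6.21% of all genes, with a median change of 0.15 (Stat2, Irf7, Parp14 and Ifngr1). These values reuse the contrast that chose the members and are a description. Of the regulators, Irf7 was higher in KO mice of both kinds, by 1.18 ± 0.22 (SE) in mice with Y transcripts and 0.91 ± 0.22 in mice with Xist, as was Stat2, by 0.60 ± 0.16 and 0.39 ± 0.16. The difference between these effects, in mice with Xist minus mice with Y transcripts, was -0.27 ± 0.31 for Irf7 and -0.21 ± 0.22 for Stat2, within its error for both. The KO over WT change of Igtp was 1.66 ± 0.26 in mice with Y transcripts and -0.46 ± 0.25 in mice with Xist.

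**Figure D4:**
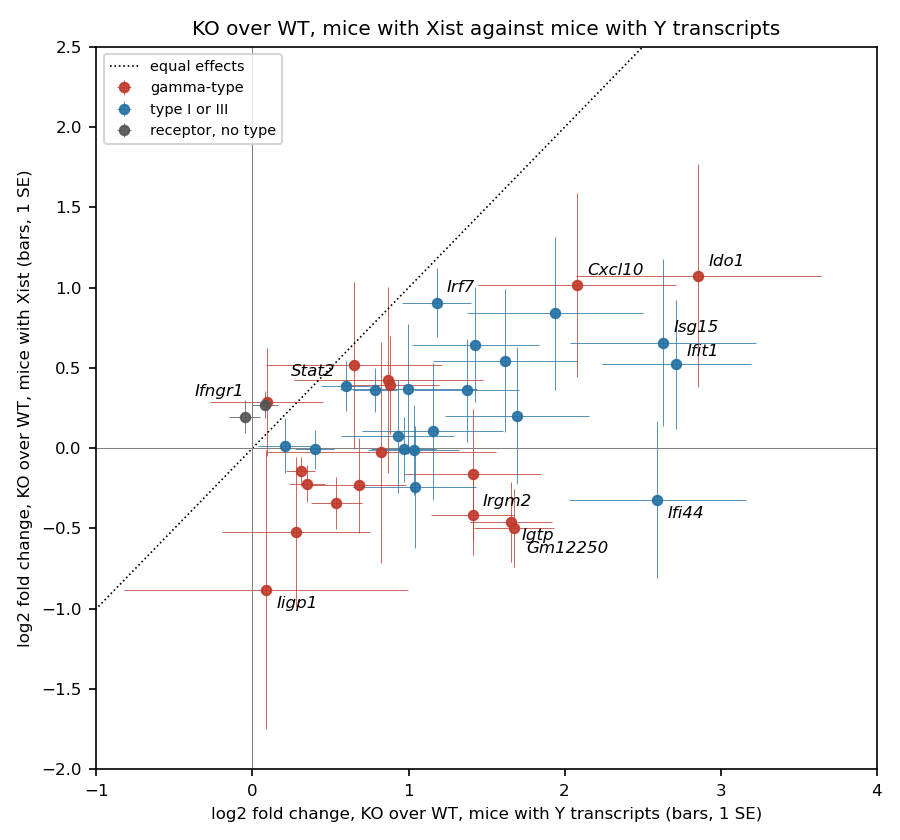
Log2 fold change of KO over WT among mice with Y transcripts (horizontal axis) and among mice with Xist (vertical axis) for each tested member, with bars of 1 SE and a dotted line of equal effects (red, gamma-type; blue, type I or III; grey, receptor). Of 38 members, 35 lie below the line, with Igtp, Irgm2 and Gm12250 right of 0 and below 0 on the vertical axis and Irf7 nearer to the line.

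The difference between these effects, KO over WT in mice with Xist minus that in mice with Y transcripts, was tested directly. It is independent of the KO against WT contrast over all mice, but was added after the values were seen. At an unadjusted p under 0.05 it was negative for 15 of 38 members and positive for 0, beside 1.71% and 2.11% of all genes tested. No member had an adjusted p under 0.05 (lowest 0.687), and the median difference was -0.90, against 0.02 over all genes. The largest differences among those past the unadjusted threshold, named after their values were seen, were those of Ifi44 (-2.91 ± 0.75, SE), Ifit1 (-2.19 ± 0.62), Gm12250 (-2.17 ± 0.35), Igtp (-2.12 ± 0.36) and Isg15 (-1.97 ± 0.78). The 15 comprised 7 gamma-type and 8 type I or III members, and both receptor subunits were slightly positive, with 0.19 for Ifngr1 and 0.25 for Ifngr2. With 1 mouse left out the count was 9 without WT mouse 1, WT mouse 4 or KO mouse 3 and 12 to 18 otherwise, beside 1.12% (without KO mouse 3) to 5.43% (without WT mouse 2) of all genes, while limma gave 9 of 27 tested members on log2(FPKM + 0.1), beside 2.28% of all genes, 8 of 27 on log2(FPKM + 1), beside 2.27%, and 7 of 39 without the filter, beside 2.40%. Members move together from mouse to mouse, so 15 genes are far fewer than 15 independent observations.

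The wider interferon pathway showed the ligands near or at 0, while many induced genes were higher in the WT mice with Xist. Of 11 ligand genes, 8 (Ifnb1, 4 alpha genes, Ifne, Ifnl2 and Ifnl3) had 0 reads in all 8 mice, which allows up to 0.0997 to 0.146 CPM per mouse (3 reads, counting error only). Ifng had 30 reads in all, at 0.0924, 0, 0 and 0.125 CPM in WT mice and 0.126, 0.0388, 0.433 and 0.366 CPM in KO mice, below the filter and not tested. Of 17 receptor and JAK-STAT genes, 1 was higher in KO mice at an unadjusted p under 0.05 and 0 lower, with a median change of -0.01, and 1 of 17 is near the 5.33% of all genes. It was Ifnlr1, the specific chain of the interferon lambda receptor, at 9.98, 8.04, 10.4 and 13.3 CPM in WT mice and 11.3, 14.5, 21.5 and 14.9 CPM in KO mice, a change of 0.58 ± 0.22 (SE, adjusted p = 0.546). Ifnar1, a chain of the type I receptor, differed by -0.03 ± 0.11 (SE, adjusted p = 0.966).

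Of 61 further interferon-induced genes listed, 50 were tested, and 8 were higher in KO mice at an unadjusted p under 0.05 and 0 lower, beside 5.33% and 3.05% of all genes, with a median change of 0.32. They were Apol9a (1.51 ± 0.47, SE), Apol9b (1.25 ± 0.55), the antiviral GTPase Mx1 (0.88 ± 0.29), Ifit1bl1 (1.08 ± 0.47), the nucleotide kinase Cmpk2 (0.78 ± 0.29), the RNA sensor Ddx58 (0.50 ± 0.19), Parp12 (0.62 ± 0.25) and Parp9 (0.35 ± 0.15), with adjusted p-values from 0.518 to 0.589. With the replicate block 22 of the 50 were higher and 0 lower, beside 7.14% and 4.13% of all genes, and over all 67 tested pathway genes 23 instead of 9. The count of 9 was 2 without WT mouse 1, 3 without WT mouse 2, 3 without KO mouse 3 and 4 without KO mouse 4, beside 4.06%, 4.38%, 2.99% and 3.69% of all genes, which is near the background. It was 14 without KO mouse 1 and 21 without WT mouse 4, beside 7.94% and 6.41%. In WT mice with Xist, 29 of the 50 were higher than in WT mice with Y transcripts and 0 lower at an unadjusted p under 0.05, beside 4.24% and 3.58% of all genes, with a median of 0.59. Among KO mice 14 of the 50 were higher with Xist and 2 lower, beside 1443 and 881 of all 16109 genes, so the 2 lower are near the background. The difference of KO effects was negative for 8 of the 50 and positive for 0 at that threshold, beside 1.71% and 2.11% of all genes. Like the members, these genes were listed with earlier results known.

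Markers of T and NK cells, the main source of interferon gamma, ranked the WT mice like the gamma-type members, but not the KO mice. Of 14 tested T and NK cell markers, 9 were higher in KO mice at an unadjusted p under 0.05 and 0 lower, beside 5.33% and 3.05% of all genes, with a median change of 1.34 and no adjusted p under 0.05 (lowest 0.518), and all 3 pan-leukocyte genes had a positive change, 2 of them past that threshold. Gzmb, a granzyme of cytotoxic cells, stood at 4.71, 3.27, 4.79 and 13.0 CPM in WT mice and 7.30, 12.5, 25.9 and 22.2 CPM in KO mice. In WT mice 1 to 4 the median deviation from the WT mean was -0.55, -0.62, 0.17 and 1.02 log2 units for the T cell list. For the gamma-type members it was -0.45, -0.51, 0.33 and 0.75. In KO mice 1 to 4 it was 0.14, 0.64, 2.15 and 1.83 for the T cell list and 0.27, 0.28, 0.08 and 0.80 for the gamma-type members. In the split of the WT mice, all 14 markers had a positive difference (Xist minus Y), 7 of them at an unadjusted p under 0.05, beside 4.24% of all genes, and the median difference was 0.996, beside 1.11 for the gamma-type members. Among the KO mice all 14 were positive as well, 12 of them at that threshold, beside 8.96% of all genes, with a median of 1.52, beside 0.12 for the gamma-type members. In the difference of KO effects, 0 of the 14 passed, with a median of 0.46, of the opposite sign to the members. The villus list was also high in KO mice 3 and 4. All 6 tested stroma and endothelium genes had a positive difference (Xist minus Y) in both genotypes, with a median of 1.27 in WT and 1.24 in KO mice. In each genotype 4 of the 6 were higher at an unadjusted p under 0.05 (edgeR), beside 4.24% (WT) and 8.96% (KO) of all genes. None had an adjusted p under 0.05. The part of these other cells in the members' values was not tested.

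**Figure D5:**
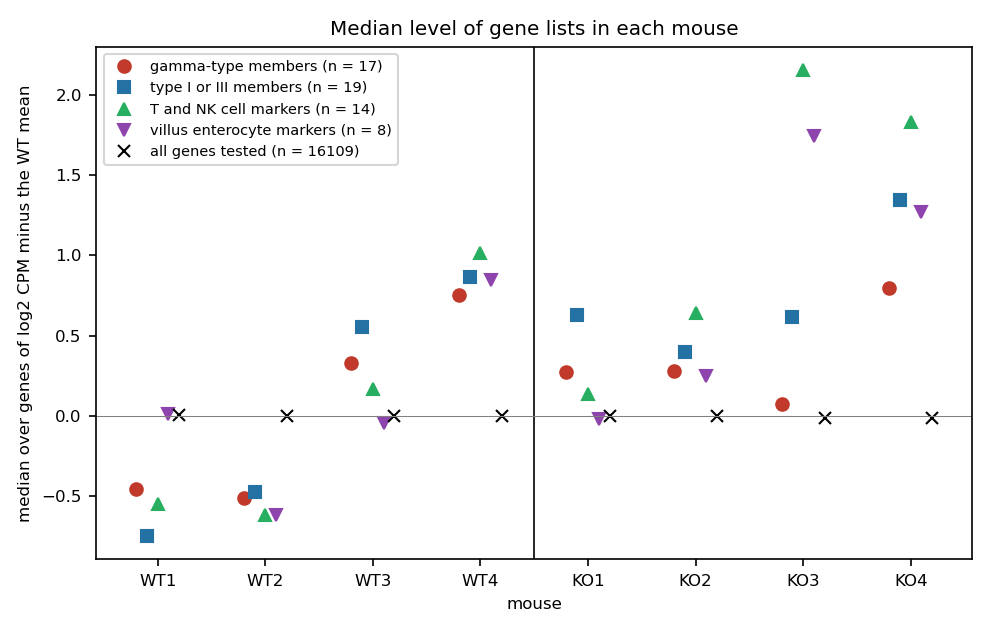
Median over genes of log2 CPM minus the WT mean in each mouse for gamma-type members, type I or III members, T and NK cell markers, villus enterocyte markers and all genes tested, each with its number of genes. Both member groups are below 0 in WT mice 1 and 2 and above 0 in the other 6, while the T cell and villus lists peak in KO mouse 3, at 2.15 and 1.74.

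Counts of overlapping genes are uncertain where reads could belong to either, and the counting is not stated to use strand. Besides the GTPases named above, this holds for Irf7 (Phrf1), Irf9 (Rnf31), Irf1 (Gm17334), Parp14 (AC129574.2), Cxcl10 (Art3), Dhx58 (Dhx58os), Usp18 (Gm44148), Rtp4 (Masp1) and Tgtp1 (Olfr56 and Gm12185), each with an overlapping gene that had reads. The labels do not say whether the mice came from separate litters, so the p-values measure the spread between these 8 mice.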

How the data were processed

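RNA of intestinal crypts from 4 Mex3a KO and 4 WT littermate mice was sequenced as 1 library per mouse. Per the labels, the submitters' processing notes name CASAVA, HISAT2 2.0.5 and featureCounts 1.5.0-p3. The authors deposited read counts and FPKM values per gene in a table of 55114 rows, whose coordinates are those of GRCm38. Its columns of the authors' own comparison (fold changes and p-values) were not used. Library totals were 20324184 to 30654105 counts, which limits low genes: 3 reads correspond to 0.0997 to 0.146 CPM.

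Counts were tested as deposited with edgeR 4.0.16 (R 4.3.3; quasi-likelihood test, TMM factors, filterByExpr with a minimum count of 10), with genotype as the only term and Benjamini-Hochberg adjustment over all 16109 genes that passed. CPM values were scaled with TMM factors. The fits by Xist and Y transcripts had 4 groups of 2 mice, 4 residual degrees of freedom, and a spread shared across groups. Alternatives were DESeq2 1.42.0, other scaling factors, no filter, limma 3.58.1 on log2(FPKM + 1) or log2(FPKM + 0.1), an Xist or Y covariate, the replicate number as a block, and each mouse left out in turn. KO was also fitted against WT in separate fits, within mice with Y transcripts alone and within mice with Xist alone. The KO against WT fits were tested on simulated data. Figures were drawn with Python 3.11.15 and matplotlib 3.10.9.

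The labels give both genotypes the replicate numbers 1 to 4. Deviations from the group means of same-numbered mice correlated across genes with r = 0.129, 0.501, 0.141 and 0.294 for the numbers 1 to 4, all above 0.1. Over autosomal genes alone r was 0.0873, 0.481, 0.0921 and 0.252, so that the numbers 1 and 3 fell below 0.1. No source says what a number marks, and the fit with the block is given beside the fit without it. No 2 libraries of the same genotype agreed within sampling noise.

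The members and the lists of pathway and marker genes were chosen with earlier results of these data known. Members named by rule with a value for each mouse were those with an unadjusted p under 0.05 in the KO against WT fit, the member with the highest mean FPKM and the one with the largest absolute change within each role, and Stat2, Irf1, Ifngr1 and Ifngr2 in any case. Outside the members these were Ifng, Ifnar1, Ifnlr1 and Mex3a, and pathway genes with an unadjusted p under 0.05; 1 further gene of this rule is not reported here. Other genes given with values, among them Irgm2, Gm12250 and Irf8 with a value for each mouse, were chosen after those were seen. Shared sequence is the share of 100-base stretches of a gene's transcript that occur in another gene. The roles and interferon types of members come from general knowledge of these genes.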

Additional observations from a re-analysis of the deposited data

Results flagged for a closer look

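In 28 groups of 4 mice tested with Dixon's criterion (each of the 14 named members in each genotype), 2 held a mouse that stood apart, beside about 1 in 20 that chance flags. Zbp1 stood at 13.2 CPM in WT mouse 4 and at 4.39 to 5.62 CPM in the other WT mice. Irf1 stood at 190.4 CPM in KO mouse 2 and at 153 to 157 CPM in the other KO mice.

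The difference of the KO effects, in mice with Xist minus mice with Y transcripts, was negative for 15 of 38 members at an unadjusted p under 0.05 (edgeR). It was positive for 0, beside 1.71% (negative) and 2.11% (positive) of all genes tested, and no member had an adjusted p under 0.05. The comparison was added after the values were seen, and members move together from mouse to mouse. Of the named members, the difference in log2 fold change was -2.12 for Igtp, -1.97 for Isg15, -0.97 for Oas1a and -0.57 for Irf1. Each was positive among mice with Y transcripts (1.66, 2.63, 0.97 and 0.35), while the effect among mice with Xist was -0.46, 0.66, -0.01 and -0.22. The split was defined from Xist and Y transcripts and coincides with the replicate numbers, so that these cannot be told apart.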

How the results depend on the processing

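The fit paired by replicate block moved the count of members higher in KO mice from 6 to 14 and that of the other pathway genes from 9 to 23. The share of all genes moved from 5.33% to 7.14%. An Xist or Y covariate gave 14 and 20, beside 7.26% of all genes, and no filter on low counts gave 15 pathway genes, beside 4.198%. Leaving out single mice gave 2 to 13 members and 2 to 21 pathway genes higher, beside 2.99% to 7.94% of all genes. It gave 0 to 1 pathway genes lower, beside 2.17% to 5.04% of all genes. The count of 15 members lower in the difference of KO effects was 18 with the replicate block, beside 1.79% of all genes. With limma it was 9 of 27 tested on log2(FPKM + 0.1), 8 of 27 on log2(FPKM + 1) and 7 of 39 on log2(FPKM + 1) without the filter. Beside these stood 2.28%, 2.27% and 2.40% of all genes. The count of 29 members higher in WT mice with Xist was 18 of 27 tested with limma on log2(FPKM + 1), beside 4.31% of all genes. For the counts of 15 and 29, fits with 1 mouse left out are given above with their shares of all genes. In separate fits, the median change of type I or III members, 0.55, was 1.16 within mice with Y transcripts and 0.35 within mice with Xist. That of gamma-type members, 0.25, was 0.84 and -0.17. In every KO against WT fit that held both mice with Xist and mice with Y transcripts, 0 members had an adjusted p under 0.05. Of 264 values of the 14 named members under alternatives, 254 lay within 1 SD of the main value and 254 had its sign. This SD is that of log2 CPM between mice of a genotype, pooled over both genotypes. It includes the difference between mice with Xist and mice with Y transcripts, so large shifts can lie within it. For Igtp it was 0.89, and a move from 0.25 to -0.47 within mice with Xist counted as within 1 SD. With 4 mice per genotype and 2 per genotype within each kind, and few reads for Cxcl10, Isg15 and the GBP genes, small differences could have been missed. The comparisons by Xist and Y transcripts and their alternatives were added after seeing the data.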
